A study of Mus musculus with 14 samples.

Results

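The clustered protocadherin genes of the mouse lie in 3 arrays, alpha, beta and gamma, on chromosome 18 (GRCm38/mm10, chr18:36930184-37841873, plus strand). Members were every gene on that chromosome whose GENCODE vM21 symbol was Pcdha, Pcdhb, Pcdhga, Pcdhgb or Pcdhgc followed by a number. There were 55 such symbols, 11 alpha, 22 beta and 22 gamma. The assay can only report a gene as a viewpoint if a transcription start site (TSS) of that gene lies in one of the captured HindIII fragments, called baits. This held for 26 of the 55 genes, which shared 24 of the 22171 baits: 3 alpha baits (*Pcdha1*, *Pcdha3* and *Pcdha12*), 19 beta baits holding 21 genes (*Pcdhb6* with *Pcdhb7*, and *Pcdhb15* with *Pcdhb16*, share a bait) and 2 gamma baits (*Pcdhga3* and *Pcdhga6*). The other 29 genes, 8 alpha, *Pcdhb20* and 20 gamma, had no bait of their own and enter only as partner fragments. The *Pcdha12* bait also holds a TSS of *Gm10545*, and the *Pcdhga6* bait one of *Gm24401*.

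Clustered protocadherins are cell-surface adhesion proteins of the cadherin family. Each variable exon carries its own promoter, alpha and gamma transcripts are spliced to constant exons at the end of their array, and beta genes are single-exon. They are best known in neurons, where each cell uses a small choice of isoforms as a surface identity code for self-recognition, and where CTCF, cohesin and distant enhancers near the alpha constant exons and downstream of the gamma genes take part in choosing the promoters.

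Promoter capture Hi-C (PCHi-C) measures which restriction fragments were ligated to a captured promoter fragment after cross-linking, as an average over a sorted population of cells. It was done on mouse cranial neural crest cells (CNCCs), the migratory cells that build the skeleton and connective tissue of the face and outer ear. Wild-type groups were dissected from *Wnt1::Cre;ROSA RFP* embryos, in which Cre acts in the neural crest progenitors and their progeny keep the RFP label. At E10.5 these were cells of the second pharyngeal arch (PA2), of the upper and lower jaw parts of the first arch (maxillary, Mx, and mandibular, Md) and of the frontonasal process (FNP), and at E12.5 and E14.5 the forming pinna, the outer ear. The remaining group was PA2 at E10.5 from *Hoxa2 EGFP/EGFP* knockout embryos, in which EGFP replaces *Hoxa2*, the gene that sets second-arch identity. These cells were sorted by GFP and the wild-type cells by RFP, so the sort cannot be told apart from the genotype. Tissue and stage cannot be told apart between the pinna and the E10.5 groups, and E14.5 tissue was digested with papain where the earlier stages were treated with trypsin. Each of the 7 conditions had 2 libraries, 14 in all. The contact lists hold no expression values, so the sorted cells were not checked against marker genes.

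Each library came as a list of fragment pairs with a CHiCAGO score, which grows (as minus the natural logarithm, after weighting by distance) as the p-value falls for ligation above what distance and fragment noise predict. The lists hold no score under 5, and a pair that was not listed was set to 0, which means below 5 and not absence of contact. Each library listed 113670 to 186248 same-chromosome pairs, and both knockout libraries listed the fewest. Read depth is unknown, so no counting interval can be given. Md replicate 1 and E12.5 pinna replicate 2 stand apart, since 46.5% and 62.7% of their listed pairs joined different chromosomes against 2.51 to 5.39% in the other 12 libraries, and their names mark them as merged. Among the pairs of the protocadherin baits, these libraries listed 363 and 707 with other chromosomes, and the other 12 libraries 4 to 13. Of 1170 distinct such pairs 1 was listed in more than 1 library, and they were left out below. The study's methods describe the replicates of each condition as biologically independent, without saying which embryos were pooled, and p-values measure the spread between them.

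Protocadherin promoters had many and strong contacts compared with other baits. For each bait the scores of its same-chromosome pairs were summed in each library and averaged over the 14 libraries. The median over the 24 baits was 157.1, against 30.4 over the 21991 baits tested, and the median bait listed 22.6 pairs per library against 4.5. The median protocadherin bait stood at percentile 91.2 of all baits, 13 of the 24 were above the 90th percentile and only *Pcdha3* was below the median. The baits carried little sequence repeated exactly in the cluster and 100 kb around it, as 0 to 6.63% of their 75-base windows (median 0.548%) occurred there again. Near-identical sequence, the partner fragments and the rest of the genome were not checked, so the part of read mapping in these scores was not tested.

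Within the alpha array the first and the last baited promoters dominated. *Pcdha1* (chr18:36930163-36933964) had a mean summed score of 287.6, with a lowest library of 189.9, a median of 283.9 and a highest of 367.8. *Pcdha12* (chr18:37014248-37030651) averaged 204.9, from 120.5 to 339.2, and *Pcdha3* between them 20.7, from 8.09 to 42.5. The highest *Pcdha3* library lay below the lowest library of either other alpha bait.

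The 19 beta baits spread over a wide range, and those at its ends are given here. *Pcdhb19* (chr18:37494469-37501503) was highest at 339.6, from 234.0 to 478.4. *Pcdhb1*, the first gene of the array, averaged 296.7, from 188.1 to 514.9, and the shared *Pcdhb6*/*Pcdhb7* bait 295.9, from 162.9 to 470.8. These ranges overlapped widely, so the order among the top baits is not set by the libraries. At the low end *Pcdhb5* averaged 50.2 and *Pcdhb9* 53.3, and their ranges, 25.6 to 79.1 and 11.9 to 118.5, lay below every library of the 3 leading baits. Both gamma baits were alike at 91.7 for *Pcdhga6* and 91.6 for *Pcdhga3*. *Pcdhga6* was lowest in the knockout libraries, at 23.3 and 68.2, against 78.7 to 128.9 in the other 12 libraries.

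**Figure D1:**
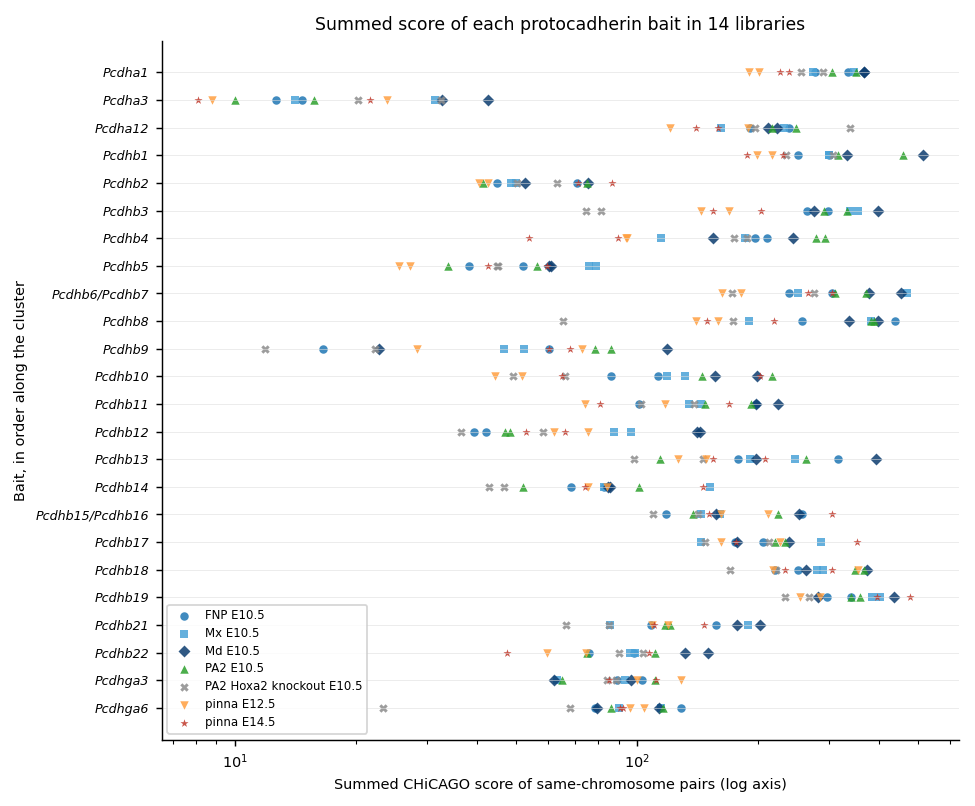
Summed same-chromosome CHiCAGO score of each of the 24 protocadherin baits in each of the 14 libraries, in order along the cluster, with the libraries coloured by condition. *Pcdhb19*, *Pcdhb1* and *Pcdhb6*/*Pcdhb7* lead with means of 339.6, 296.7 and 295.9, and *Pcdha3* is lowest at 20.7.

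Nearly all protocadherin contacts stayed inside a single block of the chromosome. Over the 14 libraries the baits gave 6845 listings, of 2177 distinct pairs. Of these listings 95.97% had the partner between the end of *Zmat2*, the gene before the alpha array, and the end of *Diaph1*, the formin gene after the gamma array, and 64.4% had it inside the cluster. A further 20 listings lay outside that block within 2 Mb and 256 lay farther. Pairs seen in a single library made up 45.98% of the distinct protocadherin pairs and 63.4% of all 837141 same-chromosome pairs, while pairs seen in all 14 libraries made up 1.29% and 1.85%.

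A small number of fragments collected contacts from most of the array. The *Pcdha1* bait was listed as a partner of 17.3 of the other 23 protocadherin baits in the mean library, from 10 to 21. Next came a 1985 bp fragment in an intron of *Diaph1* (chr18:37882878-37884862), which was listed with 14.7 of the 24 baits, from 8 to 18. Its neighbour chr18:37876138-37882822, also intronic, and the *Pcdha12* bait each reached 12.9. The bait of *3222401L13Rik* and *Gm8242* (chr18:37651972-37660581), between the beta and gamma arrays, reached 12.7, and the *Diaph1* fragment chr18:37884863-37890469 reached 10.8. Among non-protocadherin promoters, that of *Slc25a2*, a mitochondrial ornithine carrier, was listed in all 14 libraries with 7.64 protocadherin baits on average. *Taf7*, a subunit of the general transcription factor TFIID that also lies between beta and gamma, was listed in 11 libraries with 0.929. *Gm6756* was listed in 3 libraries and *Cd14*, a co-receptor for bacterial lipopolysaccharide, in 1.

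**Figure D2:**
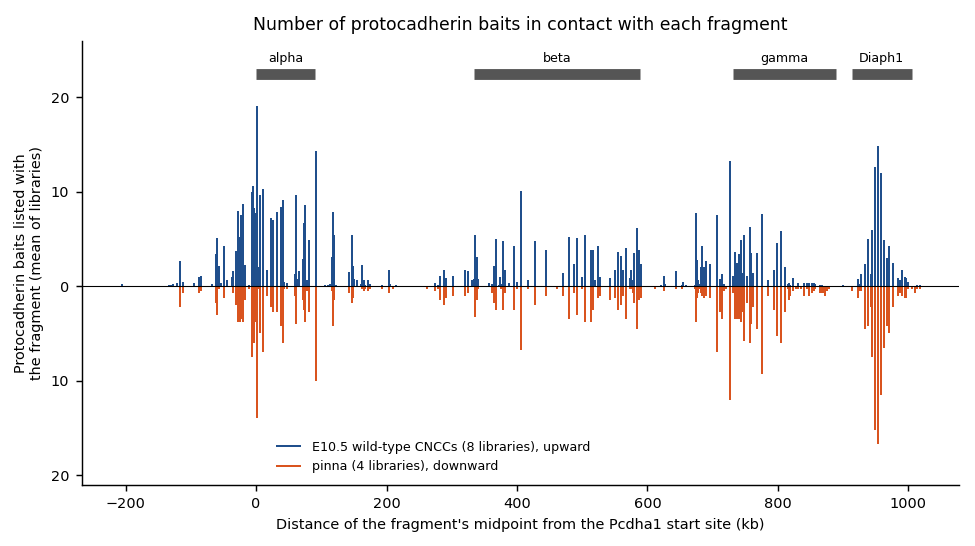
Partner profile of the protocadherin baits along the cluster. The horizontal axis gives the distance in kb from the start of *Pcdha1*, and the vertical axis the mean number of baits that listed each fragment, E10.5 wild-type libraries upward and pinna libraries downward. Peaks stand at the *Pcdha1* bait (a mean of 17.3 baits over all 14 libraries) and inside *Diaph1* (14.7), and little is listed beyond.

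The strongest single pairs joined the distal beta promoters, *Pcdhb15* to *Pcdhb19*, with *Diaph1* or with the *3222401L13Rik*/*Gm8242* bait between the beta and gamma arrays. The highest mean score was 19.6, between the *3222401L13Rik*/*Gm8242* bait and *Pcdhb19*, 158.3 kb apart. *Pcdhb18* and *Pcdhb17* followed with the *Diaph1* fragment chr18:37882878-37884862, at mean scores of 17.5 (393.9 kb apart) and 17.1. Of the 10 strongest pairs, 7 joined one of the *Pcdhb15*/*Pcdhb16*, *Pcdhb17*, *Pcdhb18* and *Pcdhb19* baits with the intronic *Diaph1* fragments, and all 10 were listed in all 14 libraries except *3222401L13Rik*/*Gm8242* with *Pcdhb18*, which Mx replicate 1 did not list. The remaining pair was *Pcdha12* with chr18:37216533-37219727, a fragment without an exon 195.7 kb away and beyond the end of the alpha genes (37187661), at 15.2.

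The arrays shared partner regions, and no test between arrays was made. For comparison between regions of unequal size, the percent of all possible bait and fragment combinations that were listed was taken. Beta baits averaged 23.3% with the alpha promoters, 11.97% with *Diaph1* and 4.45% with each other's array, over the 14 libraries. Alpha baits had 21.7% with the beta array and 0.821% with *Diaph1*. Gamma baits reached 15.02% with *Diaph1*, 7.20% with the beta array, 7.00% with the alpha promoters and 0 with the 5 fragments between the gamma promoters and *Diaph1*. Of the alpha baits' combinations with the alpha promoters 2.78% were listed in every library, which is the single pair of *Pcdha1* with *Pcdha3*, seen from both ends. *Pcdha12* listed no partner at lower coordinates within 2 Mb in any library. Since the score is taken against the ligation frequency at each distance, these shares compare enrichment over distance and not raw proximity.

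A comparison of the 4 pinna libraries with the 8 E10.5 wild-type libraries was added after the data had been seen, because the balance of the contacts differed. In the pinna the baits listed fewer partners before the cluster than in the E10.5 wild-type libraries. Those after it lay within the E10.5 wild-type range or above. Pairs of the 24 baits with fragments up to 2 Mb before the cluster, on the side of *Zmat2*, numbered 33, 49, 55 and 71 in the pinna libraries (E12.5 first) and 76 to 126 at E10.5, with a median of 98.5. Pairs with fragments up to 2 Mb after the cluster, on the side of *Diaph1*, numbered 93, 79, 85 and 101 in the pinna and 61 to 96 at E10.5. Between pinna and E10.5 wild type the counts before the cluster did not overlap, and those after it did. The E10.5 knockout libraries listed 53 and 65 pairs before it, inside the pinna range, and 42 each after it. The ratio of pairs after the cluster to pairs before it was 2.82, 1.61, 1.55 and 1.42 in the pinna. It was 0.728 to 1.103 in the E10.5 wild type, and 0.793 and 0.646 in the knockout.

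**Figure D3:**
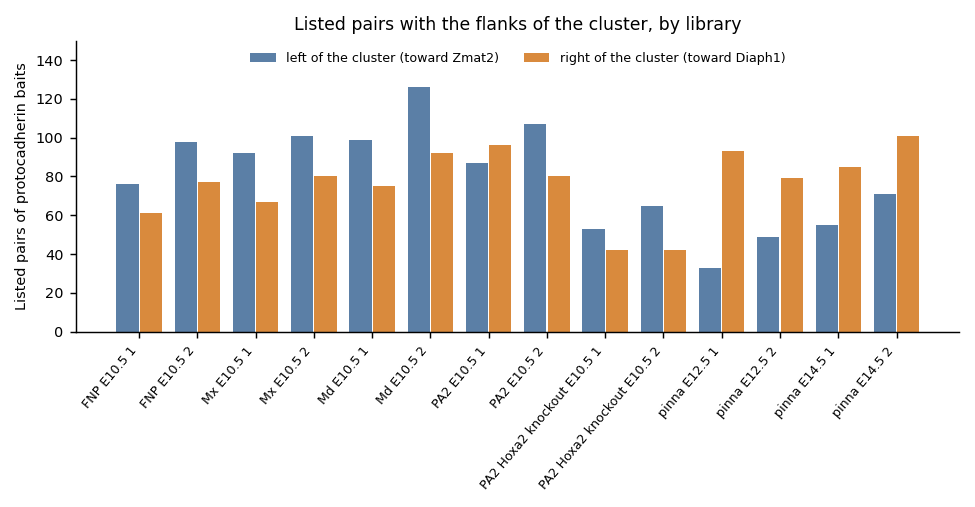
Number of listed pairs between protocadherin baits and fragments within 2 Mb to the left of the cluster (toward *Zmat2*) and to its right (toward *Diaph1*), for each of the 14 libraries. In the pinna libraries 33 to 71 pairs lay to the left and 79 to 101 to the right, and in the E10.5 wild-type libraries 76 to 126 and 61 to 96.

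Among the 19 beta baits the shares were lower in the pinna for partners before, in and after the alpha promoters and in the beta array. With the alpha promoters they listed 12.8, 13.5, 15.2 and 16.8% of combinations in the pinna libraries in ascending order, a mean of 14.6 ± 1.80% (SD, n = 4), and 27.6 ± 3.904% (SD, n = 8, lowest 22.53 and highest 35.4%) at E10.5. With the beta array itself the means were 2.41 ± 0.999% (n = 4) and 5.82 ± 1.06% (n = 8), and with the stretch after the alpha promoters 0.778 ± 0.117% and 2.26 ± 0.371%. Between *Zmat2* and the alpha promoters they were 5.29 ± 1.58% (3.37 to 7.16%) and 10.09 ± 1.63% (7.58 to 13.3%). In these 4 regions the pinna and the E10.5 wild-type groups did not overlap. The low shares were not confined to the pinna, because the E10.5 knockout libraries had 2.72 and 3.33% with the beta array, 0.792 and 0.905% after the alpha promoters and 5.16 and 6.42% before them, inside the pinna range or equal to its highest value, and 20.8 and 25.5% with the alpha promoters, above it. With *Diaph1* the beta baits listed 14.52 ± 2.24% in the pinna and 12.1 ± 2.18% at E10.5, and with the gamma promoters 8.89 ± 2.75% and 6.94 ± 0.958%, and there the groups overlapped. The alpha baits' share with the beta array was 16.1 ± 2.25% in the pinna and 24.2 ± 2.13% at E10.5.

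**Figure D4:**
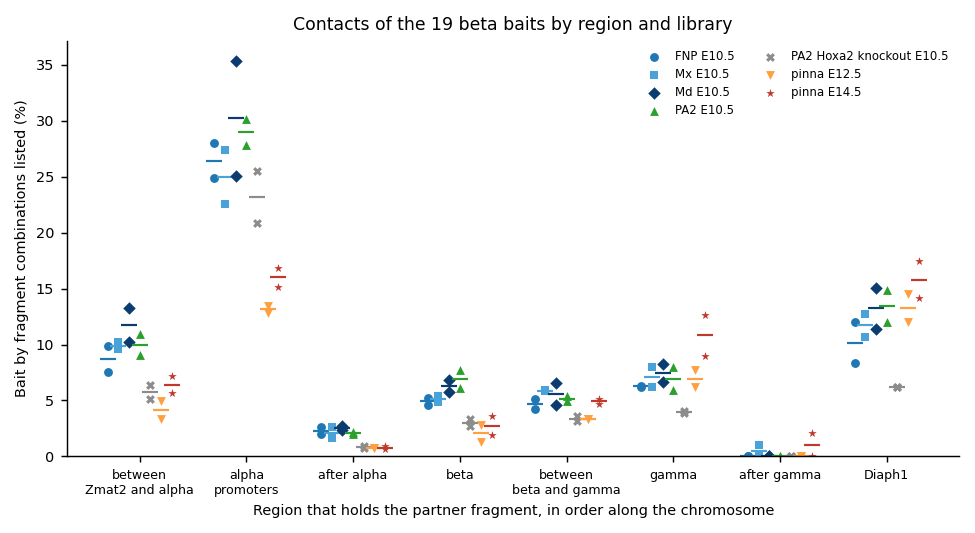
Percent of combinations of the 19 beta baits with the fragments of each region that were listed, by library and condition, with the regions in order along the chromosome. In the alpha promoters the 4 pinna libraries (12.8 to 16.8%) lie below all E10.5 wild-type libraries (22.53 to 35.4%), and in *Diaph1* the groups overlap.

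A test for each bait found shifts in named genes of the distal beta array. This test was added after the balance had been seen to differ in these libraries, so its p-values are descriptive. For every bait the balance was taken as log2 of the summed score toward higher coordinates (the *Diaph1* side) over that toward lower ones (the alpha side), within 2 Mb and with 5 added to both, and compared with limma over all 21991 baits, with Benjamini-Hochberg adjustment at 0.05. Of the 24 protocadherin baits 10 passed between pinna and E10.5, where 6.94% of all baits passed. In 9 of them, all beta, the balance shifted toward *Diaph1*, against 3.18% of all baits that shifted toward higher coordinates. In each of these 9 the pinna mean was lower on the alpha side and higher on the *Diaph1* side. For *Pcdhb13* these means were 53.35 against 152.7 and 95.93 against 76.8. For *Pcdhb9* and *Pcdhb12* the summed score toward *Diaph1* was 0 in some E10.5 libraries, where the added 5 weighs on the ratio. The median shift was 1.00 over the 24 baits and -0.03 over all baits, and 18 of the 24 values were positive. A pair that joins 2 protocadherin baits counts for both, and baits share partner fragments, so these baits are not independent of each other. Protocadherin baits also listed more pairs than the median bait (22.6 against 4.5 per library). Whether such baits pass more easily was not tested, here or for bait strength.

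The *Pcdhb15*/*Pcdhb16* bait shifted most. Its balance was 2.76, 1.73, 3.87 and 2.68 in the pinna libraries (E12.5 first), and -0.06 to 0.83 with a median of 0.30 at E10.5, and the groups did not overlap. Behind it lay a summed score toward the alpha side of 23.5, 28.6, 5.30 and 37.5 in the pinna and 56.3 to 123.0 at E10.5, and one toward *Diaph1* of 188.1, 106.5, 146.0 and 267.9 in the pinna and 57.8 to 144.4 at E10.5. The difference was 2.43 on the log2 scale (SE 0.36, limma adjusted p = 0.001964, higher in 4 of 4 pinna libraries).

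*Pcdhb18* had a balance of 3.08, 1.19, 2.70 and 2.30 in the pinna and -0.27 to 0.72 at E10.5, a difference of 2.14 (SE 0.36, limma adjusted p = 0.003909). For *Pcdhb19* the values were 2.20, 1.06, 2.24 and 1.36 against -0.40 to 0.59, a difference of 1.72 (SE 0.32, limma adjusted p = 0.006895). Neither bait's groups overlapped. The share of all baits without overlap is not given, here or for bait strength below, so these statements have no background beside them. The balance of *Pcdhb13* and *Pcdhb21* also did not overlap between the groups, with differences of 1.71 (limma adjusted p = 0.006001) and 1.64 (limma adjusted p = 0.01232). *Pcdhb22*, *Pcdhb9*, *Pcdhb12* and *Pcdhb17* passed with differences of 1.91, 1.83, 1.76 and 1.52 and limma adjusted p values of 0.01715 to 0.04807. All 9 lie in the stretch from *Pcdhb9* to the end of the beta array, where *Pcdhb10*, *Pcdhb11* and *Pcdhb14* did not pass, and none of the baits from *Pcdhb1* to *Pcdhb8* passed. The 10th bait, *Pcdha1*, has no partner at lower coordinates within 2 Mb in any library, so its shift of -0.67 (limma adjusted p = 0.01612) is a lower summed score toward the beta array (3.76% of all baits shifted toward lower coordinates). Without E12.5 replicate 1, or without E14.5 replicate 2, 6 baits passed. With the E12.5 libraries left out 7 passed, and with the E14.5 libraries left out 2. The named results were not equally firm. Those of *Pcdhb9* and *Pcdhb12* were weaker under 14 and 15 alternative settings and the same under 7 and 6. That of *Pcdhb15*/*Pcdhb16* was the same under all 21.

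**Figure D5:**
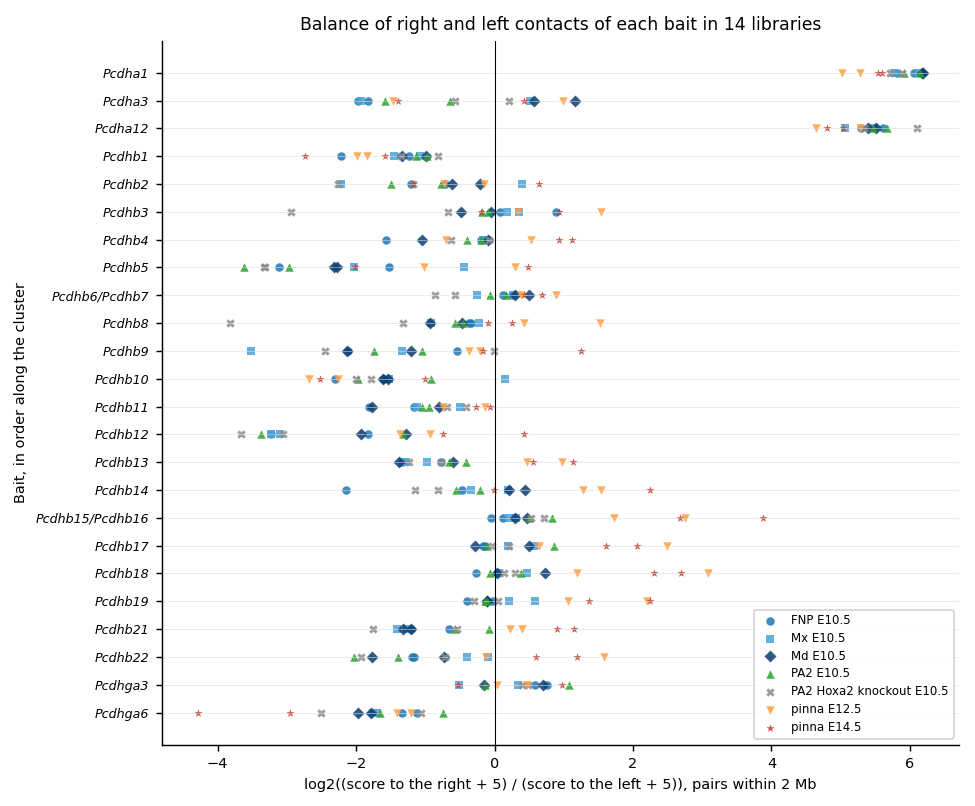
Balance of the summed score, as log2 of the *Diaph1* side over the alpha side with 5 added to both, for each protocadherin bait in the 8 E10.5 wild-type, the 2 knockout and the 4 pinna libraries. The pinna points sit above all E10.5 wild-type points at *Pcdhb8*, *Pcdhb9*, *Pcdhb13*, *Pcdhb15*/*Pcdhb16*, *Pcdhb18*, *Pcdhb19* and *Pcdhb21*, by 2.43 on average at *Pcdhb15*/*Pcdhb16*. The share of all baits without overlap is not given, so this list has no background beside it.

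Some proximal beta promoters and *Pcdha1* had lower total scores in the pinna. As bait strength the summed score was put on a log2 scale (log2 of 1 plus the sum) and centred on the library's median bait, so that differences are relative to the typical bait of a library. Of the 24 baits 5 fell between E10.5 and pinna and none rose, where 6.61% of all baits passed in either direction and 4.2% fell. The median difference was -0.55 over the 24 baits and -0.03 over all. This comparison was added after the contacts had been seen to differ, and the summed score holds those contacts, so its p-values are descriptive.

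*Pcdhb4* had summed scores of 94.1, 94.7, 53.8 and 89.7 in the pinna and 114.9 to 294.2 with a median of 204.0 at E10.5, a difference in bait strength of -1.39 (SE 0.28, limma adjusted p = 0.003269). *Pcdhb3* had 143.9, 169.5, 203.0 and 154.3 against 265.2 to 396.8, a difference of -1.01 (SE 0.22, limma adjusted p = 0.006164). The groups did not overlap for either gene. *Pcdhb8* had 158.7, 140.0, 149.2 and 218.8 against 189.6 to 439.0, which overlapped, and a difference of -1.11 (SE 0.24, limma adjusted p = 0.006437). *Pcdhb1* (-0.78, limma adjusted p = 0.04274) and *Pcdha1* (-0.69, limma adjusted p = 0.04982) passed narrowly, and their groups did not overlap. Leaving out FNP replicate 2, Mx replicate 1 or 2, Md replicate 2, PA2 replicate 1 or 2 or E12.5 replicate 2 left 3 baits each, and scores of 10 or more left 0. Without the variance trend 0 baits passed, without the E12.5 libraries 1 and without the E14.5 libraries 3.

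Single pairs were compared on the inverse hyperbolic sine of the score, which behaves as a logarithm for high scores and keeps 0, over the 159013 pairs of the genome listed in at least 4 libraries, of which 626 have a protocadherin bait. On simulated lists with known changes this fit made more false than true calls in each comparison of 2 libraries with 2, and for the smaller changes also between pinna and E10.5. Pairs past the limma threshold are therefore counted and described by their scores, no adjusted p is given for them, and none is taken to have changed. Between pinna and E10.5, 13 of the 626 passed, 2.08% of them, against 3.59% of all pairs, so the protocadherin pairs were not above the background. Over all pairs 1.49% passed as higher and 2.1% as lower. The share of the 626 pairs that lead to each region is not given, so the counts by region that follow have no background. The alpha promoters were the region that the beta baits listed most, at 23.3% of combinations over the 14 libraries, against 11.97% for *Diaph1*. The 2 with higher scores in the pinna both lead into *Diaph1*, and so does 1 of the 11 with lower scores. *Pcdhb15*/*Pcdhb16* with chr18:37882878-37884862 scored 23.5, 21.8, 19.2 and 36.3 in the pinna and 6.07 to 17.3 at E10.5, and *Pcdhb19* with chr18:37876138-37882822 scored 22.8, 15.33, 18.1 and 18.8 against 10.1 to 15.31. The groups did not overlap in either pair, although in the second the nearest libraries were almost equal. The differences were 0.88 (SE 0.20) and 0.42 (SE 0.11). Of the 11 lower pairs, 8 joined a fragment at the alpha promoters or before them, led by *Pcdhb8* with chr18:36955319-36957031, which holds an exon of *Pcdha4*. That pair scored 5.45 to 11.2 in all 8 E10.5 wild-type libraries and was listed in none of the pinna or knockout libraries (difference -2.71, SE 0.39). The lower pair into *Diaph1* was *Pcdhga6* with chr18:37882878-37884862, at 5.23 to 8.23 in all 8 E10.5 libraries, at 6.06 in E12.5 replicate 1 and unlisted in the other 3 pinna libraries (-2.03). The other lower pairs on the alpha side were *Pcdhb18* with a *Pcdha2* exon fragment (-2.41), *Pcdhb1* and *Pcdhb19* with chr18:36951811-36955318 (-2.40 and -2.28), *Pcdhb3* with chr18:37004575-37005059 (-2.35), *Pcdhb19* with chr18:36907517-36911641 (-2.14), *Pcdhb4* with *Pcdha12* (-2.03) and *3222401L13Rik*/*Gm8242* with *Pcdha1* (-1.97). *Pcdhb8* with chr18:37049395-37051450, after the alpha promoters (-2.19), and *Pcdhb5* with *Pcdhb3* (-2.04) completed the 11. Leaving out any of the 12 libraries brought the number of protocadherin pairs that passed to 2 to 5.

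The comparison of second-arch with other CNCCs asks whether contacts follow the *Hoxa2*-expressing lineage. PA2 and pinna together (6 libraries) were set against FNP, Mx and Md (6 libraries). No protocadherin bait passed on strength, where 0.223% of all baits passed and 1 of the 24 had an unadjusted p under 0.05. None passed on balance, where 0.0364% of all baits did, with 9 of the 24 under 0.05 unadjusted, and no protocadherin pair passed, where 0.00943% of all did, with 54 under 0.05 unadjusted. The share of all baits or pairs under 0.05 unadjusted is not given here or below, so these counts have no background beside them. The median difference in strength was -0.31 over the 24 baits and -0.02 over all. With PA2 replicate 2 left out, 3 baits passed on balance.

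From E10.5 PA2 to E12.5 pinna, the same lineage at a later stage, 22 of the 24 baits had a lower value and the median difference in strength was -0.73, against -0.09 over all baits. The 2 baits that passed both fell, where 0.364% of all baits passed and 0.282% fell. *Pcdhb4* went from 294.2 and 279.1 in PA2 to 94.1 and 94.7 in the pinna (-1.89, SE 0.38, limma adjusted p = 0.03638), and *Pcdhb10* from 216.1 and 145.3 to 51.9 and 44.5 (-2.16, SE 0.45, limma adjusted p = 0.04195). PA2 and E12.5 pinna libraries did not overlap for either gene. At E14.5 *Pcdhb4* stood at 53.8 and 89.7 and *Pcdhb10* at 65.1 and 201.8, so the E14.5 libraries differed widely for *Pcdhb10*. In balance none of the 24 baits passed (0.0273% of all baits), with 8 under 0.05 unadjusted. On simulated data the balance fit recovered 0.5% of changes of 1.5 on the log2 scale here, so changes could be missed. Of the pairs 2 passed as lower, where 1.35% of all pairs passed and 0.696% as lower, *Pcdha1* with the gamma fragment chr18:37729388-37740108 (-2.33) and *Pcdhb8* with the *Pcdha4* fragment (-2.78), and by the simulation neither is a reliable call. The strength calls were lost, to 0 or 1 bait, on leaving out any FNP, Mx, Md, PA2 or knockout library or E12.5 replicate 2, and without E12.5 replicate 1 there were 7. Leaving out any library but FNP replicate 1 moved the number of pairs, from 0 without PA2 replicate 2 to 10 without either Md library.

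Between E12.5 and E14.5 pinna no bait passed on strength (0.0909% of all baits, with 5 of the 24 under 0.05 unadjusted) or balance (0.0227%, with 1 of the 24). On simulated data these fits recovered 0% (strength) and 0.5% (balance) of changes of 1.5 on the log2 scale, so changes could be missed. A single pair passed, which by the simulation is no reliable call, *Pcdhb19* with a fragment between *Zmat2* and *Pcdha1* (chr18:36812844-36815496), unlisted at E12.5 and at 5.14 and 5.23 at E14.5 (2.35), where 0.862% of all pairs passed and 0.457% as higher. It did not pass when either FNP, PA2 or knockout library was left out, and 3 to 9 pairs passed without an Md or pinna library. In the test for any difference among the 7 conditions *Pcdhb4* (limma adjusted p = 0.01174) and *Pcdhb3* (limma adjusted p = 0.01333) passed on strength (3.52% of all baits), *Pcdhb15*/*Pcdhb16* on balance (limma adjusted p = 0.04156; 1.63%), and 13 pairs (4.37%). These 13 were the 10 pairs named for the E12.5, E14.5 and knockout comparisons, *Pcdhb10* with chr18:36957032-36965982, and *Pcdhb8* with chr18:37005060-37006508 and chr18:36993408-36999996. Each of the 14 libraries was needed for *Pcdhb15*/*Pcdhb16* to pass. The number on strength became 1 without PA2 replicate 1 or knockout replicate 1 and 4 without E12.5 replicate 1, and that of pairs 20 to 29 without any FNP, Mx, Md or pinna library.

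The *Hoxa2* knockout was compared with wild-type PA2 at E10.5 to ask which contacts differ without *Hoxa2*. *Pcdhb3* was the only protocadherin bait that passed on strength, and 6 of the 24 had an unadjusted p under 0.05. Its summed score was 333.6 and 292.7 in wild-type PA2 and 74.8 and 81.6 in the knockout, and the other 6 E10.5 wild-type libraries held 265.2 to 396.8. Every knockout value lay below every wild-type value, the pinna included (143.9 to 203.0). The difference in strength was -1.79 (SE 0.35, limma adjusted p = 0.01549). Of all baits 0.828% passed and 0.782% fell, against 1 of 24 here, and the median difference was -0.30 over the 24 baits and -0.03 over all. The next by p-value were -1.65 for *Pcdhb8* (limma adjusted p = 0.09313), -1.42 for *Pcdhb10* (limma adjusted p = 0.1879) and -2.07 for *Pcdhb9* (limma adjusted p = 0.2159), which did not pass. Without centring 2 baits passed, and 0 did without the variance trend or with only the 4 libraries compared. *Pcdhb3* did not pass when 1 of the 4 PA2 libraries was left out, and no protocadherin bait passed without PA2 replicate 1 or 2 or knockout replicate 1. In balance 0 of 24 passed with limma (0.164% of all baits), and 2 were under 0.05 unadjusted. On simulated data the fits recovered 4% (strength) and 2% (balance) of changes of 1.5 on the log2 scale here, so changes could be missed.

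Both knockout libraries had fewer contacts of the beta baits than wild-type PA2, while those of the alpha baits differed by region. Per 1000 same-chromosome pairs of the library they listed 2.93 and 3.25 pairs with a protocadherin bait, against 4.21 and 3.77 in wild-type PA2 and 3.31 to 3.87 in the other E10.5 libraries, while the pinna had 2.16 to 2.77. Beta baits with *Diaph1* stood at 6.17% of combinations in both knockout libraries, and at 14.9 and 11.98% in PA2, with 8.35% the lowest E10.5 value. With the gamma promoters the shares were 3.86 and 4.09% against 7.95 and 5.965%, and with the alpha promoters 23.2% on average against 28.9%. Alpha baits listed 8.00 and 9.21% of their combinations inside the cluster in the knockout, and 8.48 and 8.36% in PA2. With the beta array the alpha baits listed 22.4 and 22.95% in the knockout and 24.04 and 26.2% in PA2. Between the beta and gamma arrays the alpha baits listed 6.38 and 9.22% in the knockout and 4.96% in each PA2 library. For beta baits with *Diaph1* and the gamma promoters, both knockout values lay below all 12 wild-type libraries, the pinna included. Since these libraries also listed the fewest pairs genome-wide, the part of list size in these shares was not tested.

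Of the 626 pairs 8 passed between knockout and wild-type PA2, 1.28% against 2.09% of all pairs, with 0.359% as higher and 1.74% as lower, and by the simulation most such calls may be false. The 6 lower pairs were listed in both PA2 libraries and in no knockout library. *Pcdhga6* with *Pcdhb18* scored 11.9 and 12.1 in PA2 (-3.18, SE 0.31) and was listed in all 12 wild-type libraries. *Pcdhb3* with the *3222401L13Rik*/*Gm8242* bait scored 5.58 and 14.8 (-2.91), and *Pcdhb4* with chr18:37876138-37882822 in *Diaph1* 13.6 and 11.1 (-3.20). The other 3 were *Pcdhb21* with *Pcdhb19*, *Pcdhb22* with chr18:37882878-37884862, and *Pcdhb8* with the *Pcdha4* fragment. The 2 higher pairs were unlisted in PA2, *Pcdhb1* with chr18:36933965-36934290 at 6.36 and 9.68 and *Pcdhb15*/*Pcdhb16* with chr18:37901982-37912663 in *Diaph1* at 8.77 and 5.95. Numbers were 5 without PA2 replicate 2, and 13 to 21 without any FNP, Mx, Md or E14.5 library.

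Lists of neighbouring and related genes, chosen by function or position, were read from the same fits. Between pinna and E10.5, 6.61% of all baits passed on strength and 6.94% on balance, and the p-values of this added comparison are descriptive here too. Of 19 baits for genes inside or beside the cluster (median percentile of summed score 74.4) 3 fell between E10.5 and pinna. These were *Apbb3*/*Slc35a4* (-3.34, limma adjusted p = 0.008391), *Ik*/*Ndufa2* (-0.91, limma adjusted p = 0.03193) and *Pcdh12*/*Rnf14* (-1.18, limma adjusted p = 0.02054). *Apbb3*/*Slc35a4* had summed scores of 44.83, 6.98, 0 and 0 in the pinna (E12.5 first) and 29.31 to 76.79 at E10.5, which overlapped. *Ik*/*Ndufa2* also overlapped, with 78.55 in E12.5 replicate 2 against 72.66 to 136.3 at E10.5. *Pcdh12*/*Rnf14* did not, at 15.01 to 36.3 against 46.56 to 83.59. Of 12 baits of non-clustered protocadherins, which are encoded by separate genes, only the *Pcdh12*/*Rnf14* bait fell (median percentile 83.3), and the balance of *Pcdh8* (0.71) and *Pcdh9* (1.54) shifted toward higher coordinates. Among the 15 baits for CTCF, cohesin and silencing factors, 1 fell, that of the cohesin loader *Nipbl* (-1.59, limma adjusted p = 0.04531), whose balance also shifted (-1.42, limma adjusted p = 0.01063) as did that of *Pds5b*, a cohesin regulator (1.82, limma adjusted p = 0.04506). Their median percentile was 58.7, and *Smc3*, *Smchd1* and *Setdb1* had no bait. None of these baits passed in the other pairwise comparisons on strength or balance.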

How the data were processed

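The 14 PCHi-C libraries (7 conditions, 2 replicates each) were deposited by the authors as 1 list per library of fragment pairs with a CHiCAGO score, made from reads processed with HiCUP on the mouse genome GRCm38/mm10, with fragments of 150 to 40000 bp and the scores of each library called separately. Base calling used bcl2fastq 2.17 per the submitters' processing notes. No read counts come with the lists. A bait is any fragment in the first position of a listed pair, and genes were assigned to it by a GENCODE vM21 TSS. All columns of per-sample values were used, and groups were taken from the sample titles.

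For each bait, strength was log2(1 + summed same-chromosome score), centred on the library median. Balance was log2 of the summed score at higher over that at lower coordinates within 2 Mb, with 5 added to each, and single pairs were compared as the inverse hyperbolic sine of the score. Baits with a pair in at least 4 libraries (21991) and pairs listed in at least 4 libraries (159013) were fitted with limma 3.58.1 in R 4.3.3 (lmFit, eBayes with a variance trend, adjusted p by Benjamini-Hochberg, threshold 0.05). PA2 and pinna were set against FNP, Mx and Md in the 12 wild-type libraries, the other comparisons used 7 group means over 14 libraries, and pinna against E10.5 used the 12 wild-type libraries. The balance measure and the comparison of pinna with E10.5 were added after the data were seen, and the members and gene lists were chosen with earlier results of these data known. The scripts were tested on simulated data. There the fits of strength and balance kept false calls well below true ones when they made more than a few calls. The fit of single pairs did not in the comparisons of 2 libraries with 2, so its calls are given as descriptions. In those comparisons the fits of strength recovered 0 to 4% and those of balance 0.5 to 2% of changes of 1.5 on the log2 scale. Of changes of 3 they recovered 48 to 58.5% and 48.5 to 59%. A bait that did not pass there may still have changed. Genes named are all alpha and gamma baits, the 3 beta baits with the highest and the 2 with the lowest mean summed score, the 10 strongest pairs, the 5 partner promoters outside the arrays listed in the most libraries, and the baits and pairs that passed. Among these promoters *Cd14* tied with others at 1 library, and had the highest mean number of protocadherin baits of those tied (0.143). No DNA sequence of these genes is reported here, and a planned motif search in their promoters was not run.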

Additional observations from a re-analysis of the deposited data

Results flagged for a closer look

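Md replicate 1 listed 363 pairs between protocadherin baits and other chromosomes, and E12.5 pinna replicate 2 listed 707, against 4 to 13 in the other 12 libraries. These pairs entered no comparison.

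Of 54 groups of 4 to 8 libraries that were looked at, 5 had a library far from the others, where chance alone gives about 1 in 20. Among the pinna libraries, the ratio of pairs after the cluster to pairs before it, both within 2 Mb, was 2.818 in E12.5 replicate 1, the highest of the 4. Among the E10.5 wild-type libraries the same ratio was 1.103 in PA2 replicate 1, the highest of the 8. The balance of *Pcdhb9* was 1.247 in E14.5 replicate 2, above the other pinna libraries. The summed score of *Pcdhb4* was 53.8 in E14.5 replicate 1, below the other pinna libraries, and that of *Pcdhb10* was 201.8 in E14.5 replicate 2, above them.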

How the results depend on the processing

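The values below are numbers of protocadherin baits or pairs that passed (pairs as a description only), beside the number under the settings of the report. Strength: for the knockout against PA2 (1), 2 without centring, 0 without the variance trend and 0 with only the 4 libraries compared; for E12.5 pinna against PA2 (2), 1 with scores of 10 or more, and 0 with equal numbers of top pairs, without centring, without the trend, with only the 4 libraries and without the merged libraries; for any difference (2), 4 without centring, 4 with numbers of listed pairs and 0 without the trend; for pinna against E10.5 (5), 0 with scores of 10 or more, 0 without the trend, 3 without the merged libraries, 1 without the E12.5 and 3 without the E14.5 libraries. Balance: for PA2 and pinna against the rest (0), 1 with 20 added and 3 with 7 group means; for any difference (1), 7 with 20 added, 0 with numbers of pairs and 0 without the merged libraries; for pinna against E10.5 (10), 2 without the E14.5 libraries. Pairs: for PA2 and pinna against the rest (0), 1 with equal numbers of top pairs, 5 without the trend and 7 with 7 group means; for the knockout (8), 24 over pairs listed in at least 2 libraries, 125 with only the 4 libraries and 27 without the merged libraries; for E12.5 pinna against PA2 (2), 1 with scores capped at 20, 5 with equal top pairs, 0 with quantile normalization, 1 with log2(score + 1), 11 over pairs in at least 2 libraries, 0 with only the 4 libraries and 12 without the merged libraries; for E14.5 against E12.5 (1), 0 capped, 3 with equal top pairs, 0 with quantile normalization, 0 with log2(score + 1), 12 over pairs in at least 2 libraries, 2 without the trend, 0 with only the 4 libraries and 9 without the merged libraries; for any difference (13), 8 with quantile normalization, 53 over pairs in at least 2 libraries and 42 without the merged libraries; for pinna against E10.5 (13), 0 with scores of 10 or more, 6 capped, 7 with quantile normalization, 4 over pairs in at least 2 libraries, 4 without the merged libraries, 5 without the E12.5 and 3 without the E14.5 libraries. With 1 library left out at a time, strength gave 0 to 0 baits for PA2 and pinna against the rest, 0 to 1 for the knockout, 0 to 7 for E12.5 pinna, 0 to 0 for E14.5 pinna, 1 to 4 for any difference and 3 to 5 for pinna against E10.5. Balance gave 0 to 3 for PA2 and pinna, 0 for the knockout and both pinna stages, 0 for any difference and 6 to 10 for pinna against E10.5, and pairs gave 0, 5 to 21, 0 to 10, 0 to 9, 15 to 29 and 2 to 5 in the same order. The mean score over all combinations inside the cluster, 0.3998, became 0.07164 with scores of 10 or more and 0.324 with equal top pairs, and 5.615% of them were listed. Alpha baits with the stretch after the alpha promoters went from 0.2508 to 0.09733 (3.123% listed), beta baits with *Diaph1* from 1.043 to 0.4409 (11.97%) and beta baits with the alpha promoters from 1.766 to 0.3882 (23.26%). The cause was not tested for any of these. Over the named baits and pairs, no alternative reversed a direction.

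Replicate numbers did not pair the libraries. In 21 pairs of conditions the deviations of same-numbered libraries correlated at -0.104 to 0.101 (median 0.0256), above 0.1 in 1 of them. With the replicate block, the pairs that passed numbered 0 for E12.5 pinna against PA2, 0 for E14.5 against E12.5 and 8 for pinna against E10.5, and no other number moved by over 1.5 times. Baits of *Pcdhac1* and *Pcdhac2* could not be added, since neither has a bait, so that alternative was not run. Scores under 5 are not in the lists, so a contact just below that score and none at all look alike.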

Other observations

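Other gene clusters give a scale for how much of an array is joined to itself. Over the 14 libraries 5.62 ± 1.195% (SD, n = 14) of the combinations of bait and fragment inside the protocadherin cluster were listed. The histone cluster Hist1 had 6.57 ± 1.17%, the type I keratin genes 6.81 ± 1.25% and the type II keratin genes 8.55 ± 1.55%. The Hox clusters, which encode patterning factors and are much shorter, ranged from 0.255% for Hoxd to 72.3 ± 15.8% for Hoxc. Inside the protocadherin cluster the share was 4.39% in the pinna (n = 4) and 6.48% in the E10.5 wild-type libraries (n = 8). It was also lower in the pinna for the type I keratin genes (5.58 and 7.73%, with no overlap), Hoxa (1.42 and 6.73%), Hoxb (8.37 and 20.6%) and Hoxc (54.0 and 83.3%), and higher for Hist1 (7.57 and 6.62%) and the type II keratin genes (9.79 and 7.54%). A lower share in the pinna was therefore not particular to the protocadherins. The clusters differ in length and in the number of baits, and no test was made between them.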
